A study of Mus musculus with 6 samples.

Results

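Il10, Ebi3, Il12a, Fgl2, Il1rn and Penk encode secreted mediators of suppression by regulatory T cells (Treg). They were chosen by symbol, and each of the 6 matched 1 of the 36811 genes in an RNA sequencing table. Treg are CD4+ T cells that restrain immune responses, and their lineage factor is Foxp3. The cells came from the spleen of C57BL/6 mice at 18 to 21 weeks after birth and were sorted by the EGFP reporter at Foxp3 after CD4+ T cells had been enriched. The 3 libraries labelled cKO are from Bach2fl/fl Foxp3EGFP-Cre-ERT2 mice and the 3 labelled WT from Bach2+/+ Foxp3EGFP-Cre-ERT2 mice, so both groups carry the same Cre. Cre-ERT2 is a recombinase that acts only when an estrogen receptor ligand such as tamoxifen is given, and the sources used here name no such treatment. By its title the series sets Treg lacking Bach2, a transcriptional repressor, against WT Treg. Its design text describes other cells, reporter Treg split by their Bach2 level, so the groups here follow the sample labels.

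Treg act on other cells partly through what they secrete. Il10 encodes interleukin 10, which signals through a receptor of 2 chains (Il10ra and Il10rb) and STAT3 and dampens macrophages, dendritic cells and T cells. Ebi3 and Il12a encode the 2 subunits of the heterodimer IL-35, and each subunit also has another partner, the Il27 product for Ebi3 and the Il12b product for Il12a. Fgl2 encodes a fibrinogen-like protein that T cells secrete and that binds Fc receptors. Il1rn encodes the antagonist that occupies the interleukin 1 receptor, and Penk encodes proenkephalin, the precursor of the enkephalin opioid peptides.

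The values are FPKM (fragments per kilobase of transcript and per unit of library size), which take length and library size into account, so levels can be set side by side between genes. Sequencing depth is not stated. From the steps in low values of long transcripts, 1 FPKM corresponded to between 3.052 and 5.02 fragments per kilobase of transcript in the 6 libraries. The table's sums ran from 1502822 to 1940807 FPKM. Whether libraries of one group came from separate animals is not stated, so p-values here measure the spread of libraries, which may be technical. Triplets of values follow the order of replicates 1, 2 and 3, and a library is named by its label and number (cKO 1). Bach2 did not check the labels: it stood at 7.88, 9.19 and 6.44 FPKM with the cKO label and 3.29, 8.25 and 4.80 FPKM with the WT label. Its mean was 7.84 FPKM in cKO and 5.45 FPKM in WT (limma, unadjusted p = 0.147), so the values do not show a loss of Bach2 RNA, and the part deleted is not given in the sources used here. Directions below compare the libraries as labelled, not measured Bach2 levels. Of the 8 defining markers of Treg and CD4 T cells, all were present in each library, with Foxp3 between 5.16 and 9.44 FPKM.

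The 6 genes covered very different transcript levels. Penk stood at a mean of 285 FPKM over the 6 libraries and ranked 511 of the 17773 rows with a value above 0. Ebi3 stood at 71.1 FPKM (rank 1940), Fgl2 at 14.6 (5901), Il10 at 2.58 (10187), Il1rn at 1.32 (11503) and Il12a at 0.264 (14225). The order Penk, Ebi3, Fgl2 and then the 3 low genes held in 6 of 6 libraries. Il10 lay above Il1rn in 4 libraries and below it in WT 2 and WT 3, so these neighbours in the order did not separate.

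**Figure D1:**
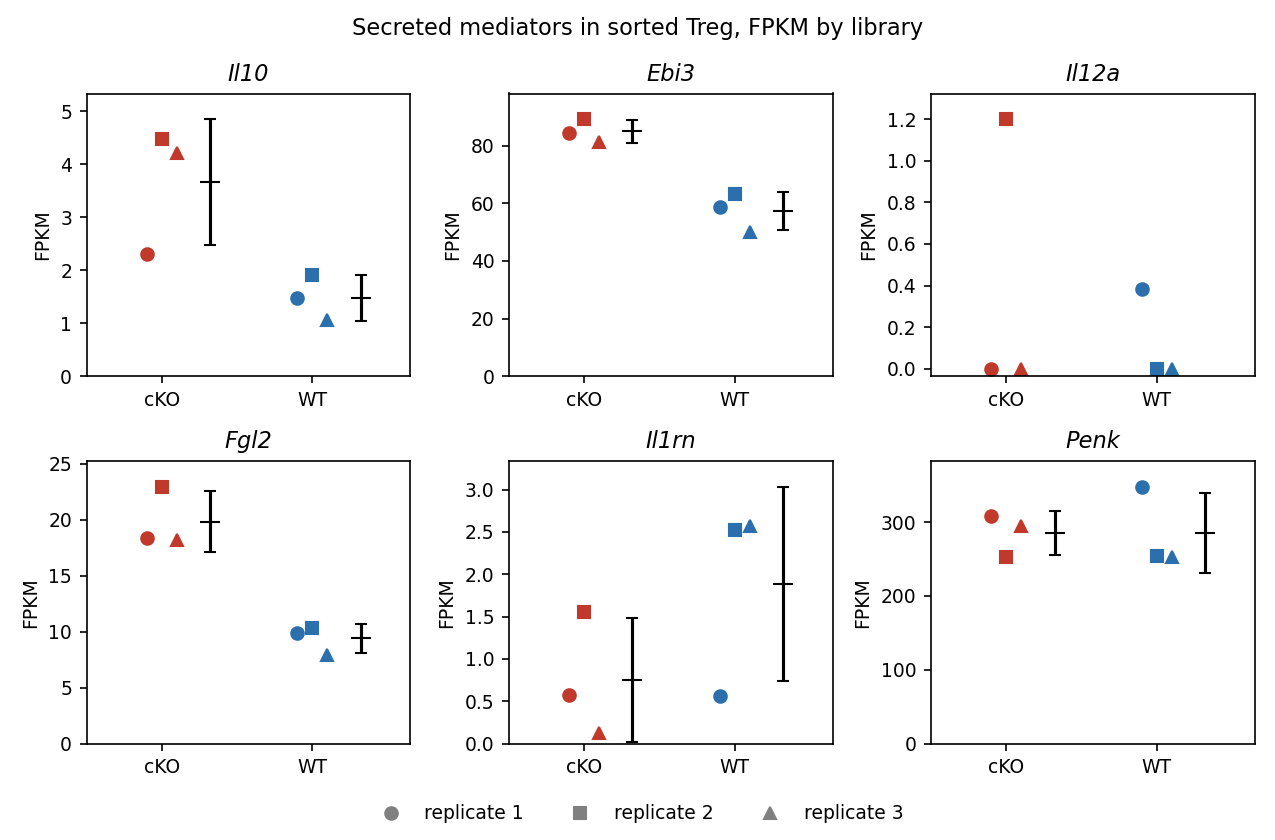
FPKM of the 6 genes in each library, cKO in red and WT in blue, with the group mean and SD (n = 3) in black beside the points; no mean is drawn for Il12a, which is listed at 0 in 4 libraries. Il10, Ebi3 and Fgl2 lie higher in each library labelled cKO than in any labelled WT, and Penk lies between 252 and 348 FPKM in both groups.

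Fewer than 10 estimated fragments behind a value, taken at the longest annotated transcript, are called near the detection limit here. By that measure Il12a was near the limit in 6 of 6 libraries, Il10 in the 3 libraries labelled WT and Il1rn in 3 libraries. Penk rested on 1124 to 2285 fragments, Ebi3 on 222 to 516 and Fgl2 on 120 to 436. These are upper figures for a gene with transcripts of several lengths. At the shortest transcript Il1rn rested on 0.166 to 3.28 fragments, under 10 in each library, and Penk on 559 to 1137. Counting error therefore weighs on Il10, Il1rn and Il12a, and less on Penk, Ebi3 and Fgl2.

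**Figure D2:**
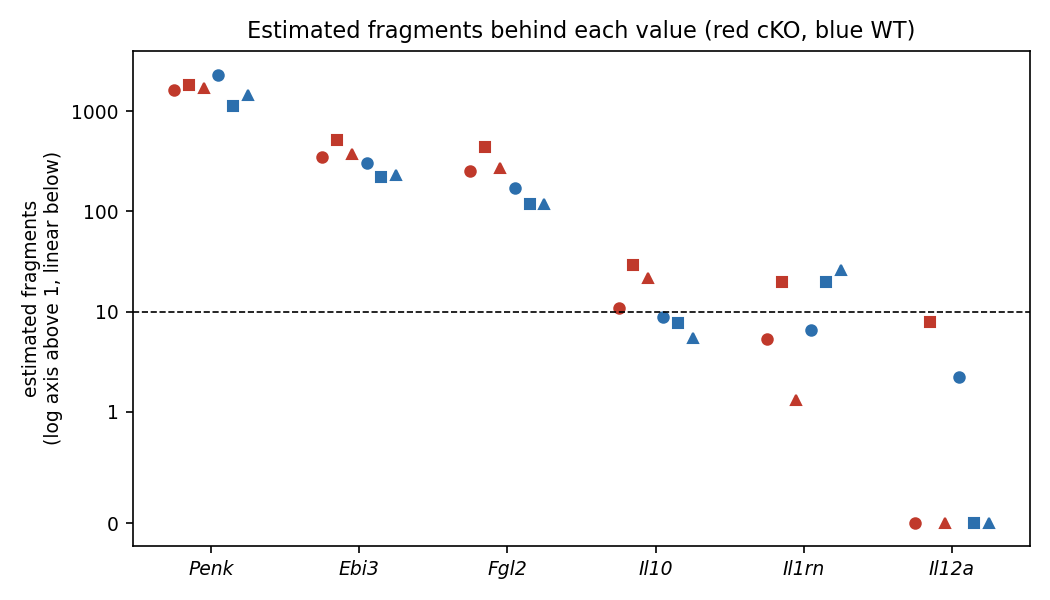
Estimated fragments behind each value at the longest annotated transcript, for the 6 genes in each library, on an axis that is logarithmic above 1 and linear below it; circles, squares and triangles are replicates 1, 2 and 3. The dashed line marks 10 fragments: Penk, Ebi3 and Fgl2 lie at 120 or more in each library, and Il12a lies below 10 in all 6.

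Il10, the cytokine of the set, was low in these Treg and higher in the libraries labelled cKO. It stood at 2.31, 4.48 and 4.21 FPKM with the cKO label and 1.47, 1.92 and 1.05 FPKM with the WT label. The groups did not overlap, though cKO 1 lay only a little above WT 2. The means were 3.67 ± 1.18 against 1.48 ± 0.433 FPKM (SD, n = 3 each), 2.48-fold. On log2(FPKM + 1) the difference was 0.89 (standard error 0.307, 95% limits 0.16 and 1.63). It did not pass over all genes tested (limma, unadjusted p = 0.0242, Benjamini-Hochberg adjusted p = 0.915). The added 1 shrinks a gene this low: with 0.1 added instead the difference was 1.23, and with 5 added it was 0.41.

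Few fragments carried the Il10 values. The 6 values fit whole fragment numbers, 10, 27 and 20 with the cKO label against 8, 7 and 5 with the WT label, with a largest distance of 0.0367 from a whole number. No other set of whole numbers fit within 0.1 over the lengths tried. The exact 95% Poisson interval for counting error ran from 1.11 to 4.25 FPKM in cKO 1 and from 0.772 to 3.96 FPKM in WT 2, the nearest pair. Those intervals overlap, and PCR copies make them too narrow. The interval of WT 3, from 0.342 to 2.46 FPKM, lay below that of cKO 2, from 2.96 to 6.52 FPKM. Without cKO 2, without cKO 3, without WT 1 or without WT 3 the unadjusted p of Il10 rose to 0.0745, 0.0788, 0.0547 and 0.0712 (limma).

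Ebi3, the subunit shared by IL-27 and IL-35, was abundant and higher in the libraries labelled cKO. It stood at 84.4, 89.2 and 81.2 FPKM with the cKO label and 58.6, 63.1 and 50.1 FPKM with the WT label. The lowest cKO library was thus well above the highest WT library. The group means were 84.9 ± 3.99 and 57.3 ± 6.58 FPKM (SD, n = 3 each), a 1.48-fold difference. This was the most even gene of the set within a group, with a coefficient of variation of 4.70% in cKO and 11.5% in WT. Its log2 difference was 0.57, standard error 0.134, between 95% limits of 0.25 and 0.89 (limma, unadjusted p = 0.00443, adjusted p = 0.846).

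Il12a, the other subunit of IL-35, was hardly detected. It was listed at 0, 1.20 and 0 FPKM with the cKO label and 0.382, 0 and 0 FPKM with the WT label. About 8 and 2 fragments at the longest annotated transcript lay behind the values of cKO 2 and WT 1. The gene fell under the filter of a mean of 1 FPKM and was not tested. Where Il12a had a value, Ebi3 was 74.1 times as high in cKO 2 and 154 times as high in WT 1. The subunits of IL-35 were therefore far from equal in transcript level. The alternative partners were no higher: Il27 was listed at 0.371 FPKM in WT 2 and at 0 elsewhere, and Il12b at 0 in each library. A listed 0 need not mean absence, since 58 rows of the table with a median above 20 FPKM also hold a 0.

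Fgl2, the fibrinogen-like mediator, had the largest difference of the set relative to its spread. It stood at 18.4, 23.0 and 18.2 FPKM with the cKO label and 9.91, 10.3 and 7.94 FPKM with the WT label. Each library labelled cKO was at least 1.76 times as high as any labelled WT. The means were 19.8 ± 2.71 and 9.40 ± 1.28 FPKM (SD, n = 3 each), 2.11-fold. The log2 difference, 1.0, had 95% limits of 0.58 and 1.42 (limma, standard error 0.177, unadjusted p = 9.15e-04, adjusted p = 0.731). Fgl2 ranked 15 of 11979 genes by p, and Ebi3 ranked 60. Without cKO 2, its highest library, the log2 difference of Fgl2 was 0.90.

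Il1rn, the receptor antagonist, was low and uneven. It stood at 0.575, 1.55 and 0.131 FPKM with the cKO label and 0.564, 2.53 and 2.57 FPKM with the WT label. WT 2 and WT 3 were the high libraries, while WT 1 lay level with cKO 1, so the groups overlapped. The highest value was 19.6 times the lowest, the widest span of the 5 genes listed above 0 in each library. About 1 to 26 fragments lay behind these values at the longest transcript. The log2 difference was -0.71 with a 95% interval from -1.87 to 0.46 (limma, unadjusted p = 0.194, adjusted p = 0.925). An interval this wide holds both a fall of more than 2-fold and no change. Il1rn has a secreted form and forms kept inside the cell that differ in their first exon, and a value for the whole gene does not separate them.

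Penk, the enkephalin precursor, was by far the highest transcript of the set and the same in both groups on average. It stood at 309, 252 and 295 FPKM with the cKO label and 348, 254 and 253 FPKM with the WT label. The highest and the second lowest of the 6 values were both in libraries labelled WT, and the groups overlapped throughout. The means were 285 ± 29.4 and 285 ± 54.4 FPKM (SD, n = 3 each). The log2 difference was 0.01 with a 95% interval from -0.40 to 0.42 (limma, unadjusted p = 0.949, adjusted p = 0.999). Its sign turned under several settings: it was -0.11 after quantile normalization and 0.17 with libraries scaled to equal sums.

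**Figure D3:**
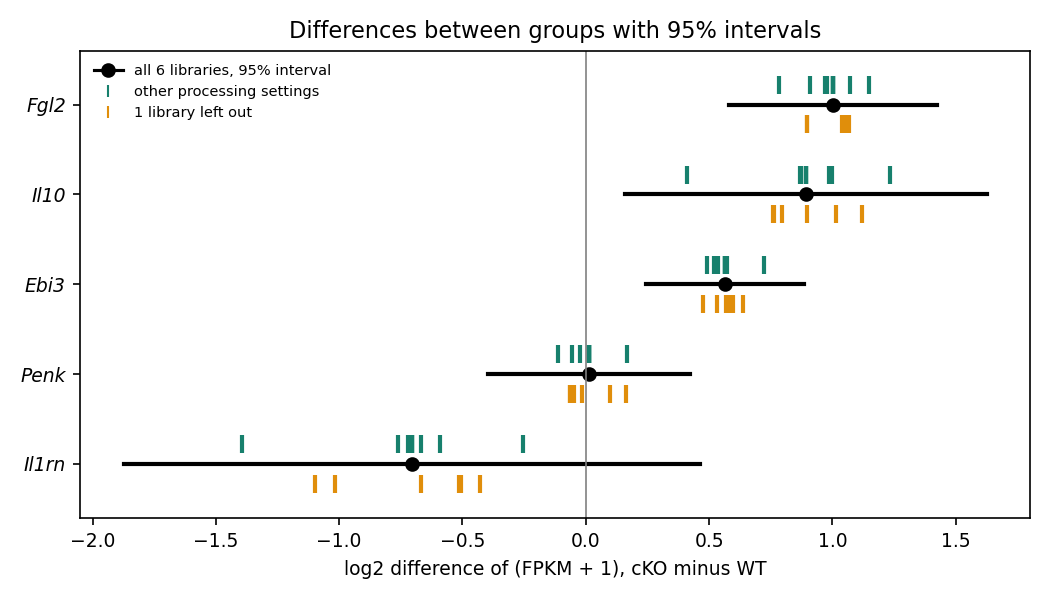
Log2 differences of FPKM + 1, cKO minus WT, for the 5 tested genes; black dots and lines are the estimates with 95% intervals, green ticks other processing settings and orange ticks fits with 1 library left out. Fgl2, Il10 and Ebi3 keep a positive difference under each setting, Il1rn a negative one, and Penk lies on both sides of 0.

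None of the 5 tested genes passed an adjusted p of 0.05. Over all genes 3 of 11979 did, 0.025% (1 higher, 0.00835%, and 2 lower, 0.0167%). At an unadjusted p under 0.05 there were 3 of the 5, Fgl2, Ebi3 and Il10, each higher in the libraries labelled cKO. The share over all genes at that level was 3.59% higher and 1.78% lower, 5.37% together. The same 3 were the members whose groups did not overlap, which held for 6.96% of genes upward and 3.75% downward. The 6 genes were picked with results of these data known, so their counts are a description. Scaling to equal sums shifted the median of all tested genes from 0.03 to 0.18 (log2). Against that shifted median Il10 stood at 1.0, Ebi3 at 0.72 and Fgl2 at 1.15, still above it. In bulk RNA a higher level in each cell and a larger share of expressing cells cannot be told apart.

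Ratios between members within a library do not depend on how libraries are scaled. Penk was 16.8, 11.0 and 16.2 times as high as Fgl2 with the cKO label against 35.1, 24.6 and 31.9 times with the WT label. Penk was 2.83 to 3.66 times Ebi3 in the libraries labelled cKO and 4.03 to 5.93 times in those labelled WT. Ebi3 was 3.88 to 4.60 times Fgl2 in the cKO libraries and 5.92 to 6.31 times in the WT libraries. None of these 3 ratios overlapped between the groups, so within each library labelled cKO both Ebi3 and Fgl2 made up more relative to Penk, and Fgl2 more relative to Ebi3. The ratios rest on the same 3 genes and each follows from the others, so they are not separate findings. How often ratios of other gene pairs do not overlap was not computed. Ratios to Il10 overlapped: Fgl2 was 4.31 to 7.94 times Il10 in cKO and 5.39 to 7.54 times in WT. The ratios were chosen after the values were seen and were not tested.

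**Figure D4:**
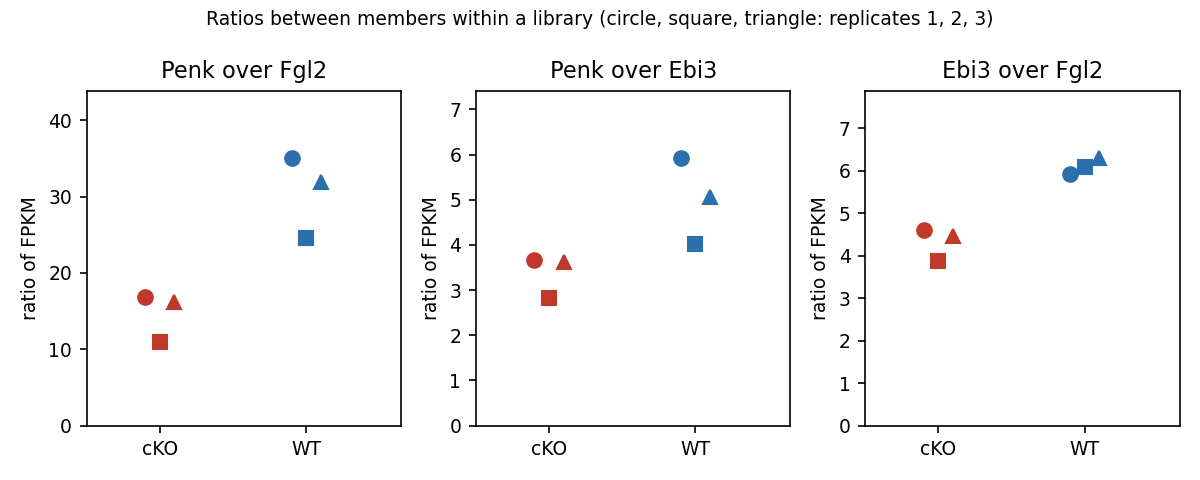
Ratios of FPKM between 2 members within each library, cKO in red and WT in blue, on axes from 0. In the panel of Penk over Fgl2 the cKO libraries lie between 11.0 and 16.8 and the WT libraries between 24.6 and 35.1.

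Promoter sequences for 4 of the 6 genes (Ebi3, Il12a, Fgl2 and Il1rn) were taken from RefSeq on GRCm38.p6, which is not the build named for the FPKM values. The letters TGANTCA are the core that AP-1 factors and heterodimers of Bach with small Maf proteins are known to bind, and they read alike on both strands. Among 32851 RefSeq windows of the 250 bases before a start, 6.75% hold them. The Fgl2 window does, at bases -16 to -10 before the start, and so does the first of 3 Il1rn windows, at -141 to -135. The single Ebi3 window, both Il12a windows and the other two of Il1rn do not. The letters TTCNNNGAA, a STAT pattern that also reads alike on both strands and shares no base with the former match, are in 7.02% of windows and in the Fgl2 window at -36 to -28. A match describes letters only and is no sign of binding. The windows of Fgl2 and Ebi3, the pair whose levels moved most alike across libraries, are printed with that of Il1rn. All are on the + strand and 5′ to 3′, with TGANTCA in capitals.
Fgl2, chr5:21372423-21372672: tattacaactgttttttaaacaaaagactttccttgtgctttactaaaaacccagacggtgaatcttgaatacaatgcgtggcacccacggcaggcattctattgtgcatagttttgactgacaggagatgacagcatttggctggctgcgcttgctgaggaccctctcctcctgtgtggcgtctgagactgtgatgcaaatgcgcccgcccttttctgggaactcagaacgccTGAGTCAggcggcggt
Ebi3, chr17:55952373-55952622: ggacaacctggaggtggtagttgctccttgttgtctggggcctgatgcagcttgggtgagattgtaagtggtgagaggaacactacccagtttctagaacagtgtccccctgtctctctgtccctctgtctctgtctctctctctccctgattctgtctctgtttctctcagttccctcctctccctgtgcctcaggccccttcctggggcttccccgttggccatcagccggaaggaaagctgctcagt
Il1rn, first window, chr2:24336610-24336859: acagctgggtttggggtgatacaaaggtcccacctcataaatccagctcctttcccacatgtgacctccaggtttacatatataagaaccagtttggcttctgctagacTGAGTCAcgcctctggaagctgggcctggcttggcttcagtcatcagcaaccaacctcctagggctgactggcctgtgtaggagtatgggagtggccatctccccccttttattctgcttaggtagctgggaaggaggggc

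Across the 6 libraries the levels of Il10, Ebi3 and Fgl2 moved together and those of Penk and Il1rn did not. On log2(FPKM + 1) Pearson's r was 0.988 for Ebi3 and Fgl2, 0.918 for Il10 and Fgl2 and 0.899 for Il10 and Ebi3. Penk had an r of 0.038 with Ebi3, -0.00061 with Fgl2 and -0.127 with Il10, and an r of -0.778 with Il1rn. These are descriptions over 6 libraries that share 2 group labels and differ in depth. Among 7603 other genes at 5 FPKM or more on average, Fgl2 was 1 of the 3 closest to Ebi3, after Tmem140 (r = 0.992) and Csnk1e (0.990). Ebi3 in turn was the closest to Fgl2, ahead of Syngr2 (0.987) and Id2 (0.987), which encodes an inhibitor of E proteins. For Il10 the closest were Psmd12, a proteasome subunit (r = 0.998), Spata6 (0.995) and Ppib, a prolyl isomerase of the secretory pathway (0.991). For Penk they were Zer1 (0.975), Lgmn, a lysosomal protease (0.973), and Pitpnm2 (0.965). For Il1rn they were Tnks2 (0.982), Fntb (0.976) and Lrif1 (0.965). With 6 points high values are common: between 26 and 117 genes had an r above 0.9 with a given member.

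The receptors and signalling genes of these mediators showed no common shift. Of 21 listed, 16 were tested, 9 above 0 and 7 below, with a median log2 difference of 0.0017 against 0.03 over all genes tested. None passed over all genes (limma), and 1 of the 16 had an unadjusted p under 0.05, near the share of 5.37% over all genes. This was Il12rb1, a receptor chain of IL-12 and IL-23, at 26.1, 32.3 and 29.3 FPKM with the cKO label and 18.6, 21.4 and 19.7 FPKM with the WT label. The log2 difference of Il12rb1 was 0.53 (limma, unadjusted p = 0.00877, adjusted p = 0.863). Il12rb1 and Il10rb were the 2 of the 16 that lay higher without overlap, beside 6.96% of all genes tested. Treg can also receive these signals, and the levels of the chains differed widely. Il10rb, the shared chain, stood at 124 and 118 FPKM on average and Il10ra, the specific chain, at 36.1 and 30.8 FPKM in cKO and WT. Il27ra, the receptor chain of IL-27, stood at 212 and 209 FPKM, and Il6st (gp130) at 23.1 and 32.3 FPKM. Il1r2, a decoy receptor for interleukin 1, stood at 164 and 136 FPKM, while Il1r1, the signalling receptor, was listed at 0.135 FPKM in WT 1 and at 0 elsewhere. The opioid receptors Oprd1 and Oprk1 were listed at 0 in each library. All of these but Il12rb1 were chosen after their values were seen.

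Partner subunits and ligands were low. Of 7 listed, 2 were tested and neither passed, and Il12b, Il23a and Il33 were listed at 0 in each library. Il18 stood at 5.63, 1.84 and 4.66 FPKM with the cKO label and 1.22, 3.04 and 3.26 FPKM with the WT label. Il1b, the agonist that the Il1rn product opposes, stood at 3.60, 0.159 and 2.27 FPKM with the cKO label and 3.03, 1.70 and 0.404 FPKM with the WT label. Both overlapped between the groups. Genes of proenkephalin processing and of secretory granules were low beside Penk: of 8 listed, 5 were tested, 3 above 0 and 2 below, at a median of 0.11, and none passed. Furin, a proprotein convertase, stood at 3.35 ± 1.17 against 2.40 ± 0.292 FPKM and Ctsh, a cathepsin, at 18.8 ± 3.80 against 14.9 ± 7.05 FPKM (SD, n = 3 each). Pcsk2, Scg2 and Chga, genes of neuroendocrine secretory granules, were listed at 0 in each library. Pcsk1, a convertase of those granules, had means of 0.946 and 1.40 FPKM. The processing genes Cpe and Ctsl had means of 4.95 and 8.29 FPKM in cKO and 5.90 and 7.62 FPKM in WT.

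Other secreted products of Treg and helper T cells went both ways. Of 23 listed, 14 were tested, 10 above 0 and 4 below, with a median log2 difference of 0.22, and none passed over all genes (limma). At an unadjusted p under 0.05 there were 5 higher and 1 lower, beside 3.59% and 1.78% of all genes tested. Lta, encoding lymphotoxin alpha, stood at 93.6, 88.7 and 95.3 FPKM with the cKO label and 60.9, 67.7 and 70.8 FPKM with the WT label. Lgals1, encoding galectin 1, stood at 634 ± 137 against 401 ± 77.1 FPKM (SD, n = 3 each). Gzmb, encoding granzyme B, stood at 16.4 ± 5.84 against 8.11 ± 2.98 FPKM, with overlap. Il4 and Ifng, helper cytokines, had log2 differences of 1.16 and 0.75 (limma, unadjusted p = 0.0244 and 0.0355). Il4 had means of 5.22 FPKM in cKO and 1.94 FPKM in WT, and Ifng of 4.46 and 2.37 FPKM. They rested on about 2 to 14 and 7 to 27 fragments. Il4 was near the detection limit in each library labelled WT, and Ifng in WT 2 and WT 3. Tgfb1, the main suppressive growth factor of T cells, was the 1 that lay lower. It stood at 4.10, 2.71 and 3.10 FPKM with the cKO label and 6.27, 8.01 and 4.35 FPKM with the WT label. The groups did not overlap, and its log2 difference was -0.73 (limma, unadjusted p = 0.0320, adjusted p = 0.915).

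Factors known to act on Il10 included both directions. Of 20 listed, 19 were tested, 15 above 0 and 4 below, at a median of 0.15, and none passed over all genes (limma). Those with an unadjusted p under 0.05 were Prdm1, Rora and Nfkb1 on the higher side and Egr2 and Jun on the lower side, 3 and 2 of the 19, beside 3.59% and 1.78% of all genes tested. Prdm1, which encodes Blimp-1, an activator of Il10 in effector Treg, stood at 8.13, 12.0 and 7.78 FPKM with the cKO label and 5.19, 4.83 and 4.66 FPKM with the WT label. Its groups did not overlap, as for 6.96% of all genes in that direction (log2 difference 0.78, limma, adjusted p = 0.863). Rora, a nuclear receptor, stood at 57.0 ± 10.4 against 37.9 ± 4.66 FPKM and Nfkb1 at 56.7 ± 7.29 against 40.6 ± 7.06 FPKM (SD, n = 3 each). Egr2, a zinc finger factor, stood at 31.3 ± 0.424 against 42.1 ± 1.77 FPKM and Jun, an AP-1 subunit, at 39.8 ± 5.50 against 54.0 ± 5.67 FPKM.

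**Figure D5:**
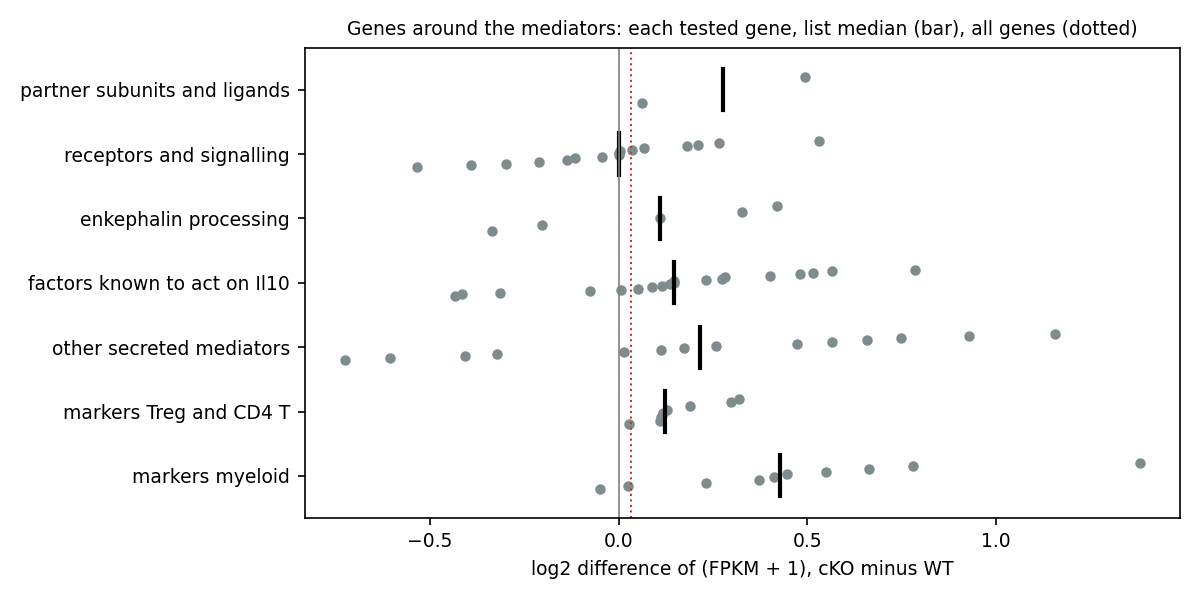
Log2 differences of FPKM + 1, cKO minus WT, for each tested gene of 7 lists (grey dots), with the list median as a black bar, 0 as a grey line and the median of all tested genes, 0.03, as a red dotted line. Receptors and signalling genes centre on 0.0017, and the list of myeloid markers has its median at 0.43.

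Myeloid cells make much Fgl2 and Il1rn, and B cells and dendritic cells can make Ebi3 and Il10, so their markers are given beside these genes. Of 13 myeloid markers 10 were tested, 9 above 0, at a median of 0.43 against 0.03 over all genes tested, and none passed (limma). Their summed level was 594, 1228 and 440 FPKM with the cKO label and 508, 482 and 419 FPKM with the WT label. The sum of cKO 2 was led by S100a8 at 545 FPKM. None of the 13 was listed at 0 in each library. Lyz2, encoding lysozyme, stood at 64.7 to 83.2 FPKM in cKO and 35.5 to 71.4 in WT, and Fcer1g, an Fc receptor chain, at 16.8 to 21.2 and 11.6 to 18.1 FPKM. Adgre1, a macrophage receptor, was at 3.32, 2.83 and 2.08 FPKM with the cKO label and 1.88, 2.05 and 1.66 FPKM with the WT label. Its groups did not overlap, as for 6.96% of all genes tested in that direction (limma, unadjusted p = 0.188). Ly6g, a neutrophil antigen, was listed at 3.77, 2.71 and 0 FPKM with the cKO label and at 0 in each library labelled WT. Csf1r, a receptor of macrophages, overlapped at 3.23 to 6.49 and 4.26 to 6.82 FPKM. Itgam stood at 1.36 FPKM or less and Cd14 at 1.70 FPKM or less. The myeloid markers thus lay mostly on the same side as Il10, Ebi3 and Fgl2, and their part in the members' values was not tested. Il1rn lay on the other side, at a log2 difference of -0.71 with overlapping groups. The higher side also held all 8 markers of Treg and CD4 T cells, at a median of 0.12, and 55.0% of all genes tested.

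The B cell markers, 6 listed and 5 tested, summed to 119 to 159 FPKM in cKO and 106 to 152 FPKM in WT. Cd79b, a chain of the B cell receptor, made up most of this at 80.5 to 112 FPKM over the 6 libraries, and Pax5 lay between 0 and 1.69 FPKM. Plasma cell markers summed to 147 to 205 and 130 to 223 FPKM. Xbp1 made up most of this at 107 to 140 FPKM, with Jchain between 19.0 and 69.8 FPKM and Tnfrsf17 at 0 in 3 libraries. Dendritic markers summed to 557 to 759 and 528 to 843 FPKM, led by Cd74, which B cells also express, at 421 to 733 FPKM. Of 8 listed, 3 were tested, 2 above 0 and 1, Cd74, below. Clec9a was at 0 in each library. Zbtb46, a factor of classical dendritic cells, was at 2.77, 1.60 and 1.52 FPKM with the cKO label and 0.703, 1.04 and 1.40 FPKM with the WT label. Its groups did not overlap, as for 6.96% of all genes tested in that direction (limma, unadjusted p = 0.146). Flt3 and Siglech had lower means in cKO, and Itgax and Xcr1 higher ones. Markers of CD8 and NK cells summed to 106 to 132 and 83.4 to 105 FPKM, without overlap, and Nkg7 made up most of these sums. The marker lists held 1 gene higher and 1 lower at an unadjusted p under 0.05, both among these markers. Over all genes tested the shares were 3.59% and 1.78%. Nkg7, a cytotoxic granule gene, was higher at 83.3, 107 and 89.2 FPKM against 79.2, 62.6 and 59.6 FPKM (limma, log2 difference 0.47, unadjusted p = 0.0267). Klrd1, an NK receptor, was lower at 0, 0.546 and 0.336 FPKM against 3.46, 1.81 and 1.35 FPKM (limma, log2 difference -1.28, unadjusted p = 0.0136). It rested on about 0 to 14 fragments and was near the detection limit in all libraries but WT 1. The sums of stromal and endothelial markers were 45.0 to 51.6 and 51.0 to 65.2 FPKM, with Col3a1 at 0 in each library. Pecam1 made up most of these sums, with means of 46.8 FPKM in cKO and 57.9 FPKM in WT. It was lower without overlap, as for 3.75% of all genes tested (limma, unadjusted p = 0.0712). The part of these cells in the members' values was not tested, and the marker genes named were chosen after their values were seen.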

How the data were processed

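Treg were sorted from mouse spleen and their RNA sequenced after SmartSeq2 library preparation, per the labels' protocols. The submitters' processing notes name the tools HISAT2, cutadapt and FastQC and the builds NCBIM37 and mm9. The FPKM values were deposited by the authors as 1 table, whose name gives cuffnorm. The sources used here do not state the annotation or filters. Symbols were matched by Ensembl identifier for 31840 of 36811 rows.

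The test was limma 3.58.1 (R 4.3.3) with its variance trend, on log2(FPKM + 1) of the 11979 genes whose mean reached 1 FPKM, with all 6 libraries, no block, and Benjamini-Hochberg adjustment at 0.05. Folds are ratios of mean FPKM. The procedure was tested on simulated data, with changes placed only in genes of higher level than Il10, Il1rn and Il12a. That run therefore does not cover genes as low as these. The scale from fragments to FPKM was estimated from single-transcript genes of at least 2000 bases with GENCODE M21 lengths, where the lowest cluster of values was taken as 1 fragment. It carries an error of some percent and need not equal the fragments sequenced. Unless stated otherwise, fragments behind a value were taken at the longest annotated transcript of the gene. Whole fragments of Il10 came from a scan of effective lengths. Intervals on them cover counting error only. No test on counts was run.

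The members, lists and tests were chosen with earlier results of these data known. Named genes are the members, genes of the pathway lists with an unadjusted p under 0.05 (else the 2 smallest per list), the 3 genes of highest r with each member, and Bach2 and Foxp3. Marker genes and others outside this rule were chosen after their values were seen. Alternatives were other pseudocounts (0.1 and 5), filters (none and 5 FPKM), scalings (equal sums, quantile, trimmed mean), a replicate block, weights for library quality, no trend or a robust one, and leaving out each library. Tables and figures used Python 3.11.15, numpy 2.4.6, pandas 2.3.3, scipy 1.17.1 and matplotlib 3.10.9.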

Additional observations from a re-analysis of the deposited data

How the results depend on the processing

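Il10, Ebi3 and Fgl2 stayed higher and Il1rn lower in the libraries labelled cKO under each alternative that gave a value, and none of the 5 tested members passed an adjusted p of 0.05 under any of them (limma, lowest adjusted p 0.279). Their log2 differences ranged from 0.41 to 1.23 for Il10, 0.47 to 0.72 for Ebi3, 0.78 to 1.15 for Fgl2 and -1.39 to -0.25 for Il1rn. Penk turned to -0.11 after quantile normalization, -0.025 with trimmed-mean scaling and -0.057 with library quality weights, and lay between -0.065 and 0.16 with 1 library left out. The cause was not tested. Il10 and Il1rn have no value with a minimum of 5 FPKM, and Il12a, untested, has one other value, 0.22 with no filter. The 3 genes called over all genes became 1 with the replicate block, and 5 to 15 when 1 library was left out. Equal sums moved the split at an unadjusted p under 0.05 from 430 higher and 213 lower to 770 and 96, and quantile normalization to 341 and 277. The replicate numbers pair no libraries by the data (correlations of deviations -0.06, -0.18 and -0.02); with the replicate block the log2 differences were 0.89 for Il10, 0.57 for Ebi3, 1.0 for Fgl2, -0.71 for Il1rn and 0.01 for Penk, and no member's call changed. Depth limits Il10, Il1rn and Il12a most.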

Other observations

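Of the receptor and marker genes under the filter on low values, Oprm1 and Cd14 lay higher in cKO without overlap and Klrb1c lower. Among genes tested 6.96% did so upward and 3.75% downward, and the share over genes under the filter was not computed. They were chosen after their values were seen and were not tested. Oprm1, the mu opioid receptor that enkephalins can bind, stood at 0.939, 0.90 and 0.694 FPKM with the cKO label and 0.445, 0.202 and 0.285 FPKM with the WT label, on about 1 to 11 fragments each. Cd14, a myeloid receptor, stood at 1.12, 1.21 and 1.70 FPKM with the cKO label and 0.894, 0.222 and 0 FPKM with the WT label, on about 0 to 11 fragments. Klrb1c, an NK receptor, was lower, at 0.742, 0.685 and 0.483 FPKM with the cKO label and 1.35, 1.50 and 0.866 FPKM with the WT label, on about 5 to 16 fragments. Il12rb2, a receptor chain shared by IL-12 and IL-35, overlapped, at 0.641, 0.395 and 1.22 FPKM with the cKO label and 0.489, 0.127 and 0.195 FPKM with the WT label.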
